A study of Mus musculus with 6 samples.

Results

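The RNA of 8 genes of spermatid cytoplasm removal and of the ubiquilin family was followed in mouse testis: Spem1, Spem2, Ubqln1, Ubqln2, Ubqln4, Ubqlnl, Ube2j1 and Alox15. The members were chosen by gene name, and all 8 were found among the 55711 entries of the deposited table. RNA sequencing covered 6 whole-testis libraries on the C57BL6 strain background, 3 from control mice heterozygous for the Tmc7 knockout allele and 3 labelled Tmc7 knockout, so the controls also carry the altered allele in 1 copy. Tmc7 encodes a transmembrane channel-like protein, and the series asks how its loss bears on the volume of elongated spermatids. The labels give neither the age of the mice, nor the structure of the allele, nor whether each library is a different animal, and the p-values therefore rest on the spread among libraries, whatever its source.

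As a spermatid elongates it sheds most of its cytoplasm, which leaves as a residual body that the Sertoli cell engulfs, and as a small droplet that stays on the sperm for a time. SPEM1 is a cytoplasmic protein of elongating spermatids that is required for this removal and binds ubiquilin-1, and SPEM2 is its relative. Ubiquilins carry ubiquitinated proteins to the proteasome, with a ubiquitin-like domain that binds the proteasome and a ubiquitin-associated domain that binds the cargo. UBE2J1 is a ubiquitin-conjugating enzyme of the endoplasmic reticulum membrane that serves the degradation of misfolded proteins, and male mice without it have sperm with retained cytoplasm. ALOX15 is a lipoxygenase that oxidises membrane lipids and takes part in clearing organelles from maturing cells, the cytoplasmic droplet of sperm among them.

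Values are in FPKM, that is fragments per kilobase of the gene, scaled for library size. Reads worked back from them came to between 17059486 and 19343479 per library. The library sizes implied by the FPKM were 0.964 to 1.07 times these totals, so the scaling was not by the plain total. Tmc7 itself was at 37.2 to 39.1 FPKM in controls, against 35.1 to 43.8 FPKM in the knockout-labelled libraries, so its RNA does not check the labels, and directions below rest on the labels. Knockout-labelled libraries 2 and 3 stood apart in that 0.335% and 0.281% of their reads fell on models of small and ribosomal RNA, against 0.0949% to 0.105% in the other 4 libraries. The same libraries had the lowest level of elongating spermatid markers, a list that holds protamines and sperm tail proteins: the summed FPKM of its 16 genes was 21883, 18066 and 13046.5 in controls against 18708, 11260 and 9865 in the knockout-labelled libraries. Markers of testis cells were present, and the 2 most abundant of each list are given with control means (SD, n = 3). Among elongating spermatid markers they were Tnp2 at 4394 ± 1105 and Prm1 at 3502 ± 1105 FPKM. Among round spermatid markers they were Tssk2 at 285 ± 37.5 and Spaca1 at 85.2 ± 7.92 FPKM. Among spermatocyte markers they were Pgk2 at 418 ± 59.1 and Syce1 at 175 ± 9.51 FPKM. Whether Pgk2 RNA came from spermatocytes alone was not tested. Sertoli markers were led by Clu at 230.3 ± 3.5 and Aard at 101 ± 6.64 FPKM. Leydig markers were led by Cyp17a1 at 123 ± 22.6 and Insl3 at 115 ± 10.1 FPKM, and leukocyte markers by Lyz2 at 15.6 ± 1.26 and C1qb at 9.30 ± 0.124 FPKM. In difference between the groups, 16 of 16 elongating spermatid, 13 of 13 round spermatid, 11 of 12 spermatocyte and 7 of 8 Leydig markers were below 0, with medians of -0.41, -0.16, -0.23 and -0.23, and 0 of them were called by limma. Of all tested genes 51.4% were below 0. In 3 of 12 spermatocyte markers the groups did not overlap, all lower, against 4.41% of all genes. At an unadjusted p under 0.05 in limma 1 of them was lower, against 2.38% of all genes. Elongating spermatid, round spermatid and Leydig markers had 0 of either kind. The summed FPKM of the Leydig markers was low in knockout-labelled library 3 alone, at 343, 352 and 369.8 in controls against 373, 383 and 215 in the knockout-labelled libraries. Not every Leydig gene followed the sum. Hsd3b1 was highest in knockout-labelled library 3 (46.1 FPKM), and Hsd3b6 was at 5.55 FPKM in control library 3 and 5.21 FPKM in knockout-labelled library 3. In bulk tissue, fewer cells of a type and less RNA per cell cannot be told apart.

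Spem1 and Spem2 are neighbours on the minus strand of chromosome 11, separated by 2410 bases with no annotated gene between them, and each has 3 exons. Ubqlnl lies on chromosome 7 from 104148259 to 104150556, near the related gene Ubqln5, and has a single exon. Ubqln2 on the X chromosome also has 1 exon, whereas Ubqln1 on chromosome 13 and Ubqln4 on chromosome 3 have 11 each. Ube2j1, on the plus strand of chromosome 4 from 33031416 to 33052363, has 8 exons. Alox15 lies on chromosome 11 from 70344152 to 70352031 with 14 exons, with Alox12 and Alox12e among the 41 annotated genes between it and Spem1. All positions are in GRCm38 as deposited and equal those of GENCODE M21 for all 8 genes, from which the exon counts were taken, for the transcript with the longest coding sequence.

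Similar copies share few sequences that could move reads between these genes. Of the 31-base words in the transcripts of Spem1, Spem2, Ubqln4, Ubqlnl, Ube2j1 and Alox15, 0% occurred in transcripts of another gene, on either strand. For Ubqln1 and Ubqln2 the shares were 0.113% and 0.181%. The longest stretch of coding sequence that Ubqln1 and Ubqln2 hold in common is 35 bases, printed here because reads within it could come from either gene:
Ubqln1 and Ubqln2, coding strand: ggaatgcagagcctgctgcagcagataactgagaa
Ubqln1 overlaps 1 annotated gene on its own strand, an intronic transcript, and the other 7 members overlap none.

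Promoter sequences were taken from RefSeq (GRCm38.p6), which held 5 of the 8 members. Those of Spem1, Spem2 and Ube2j1 are shown because these genes varied together between libraries, and that of Ubqln1 because that gene did not vary with them. Each is the 250 bases before the RefSeq start of the gene, 5′ to 3′ on the strand of the gene, with capitals for the letters of 4 searched motifs on either strand: TGACGTCA (the cyclic AMP response element bound by the spermatid factor CREM), its core TGACG (which also matches inside the full element), the TATA box TATAAA, and the motif called the CCAAT box:
Spem1, chr11:69822166-69822415, minus strand: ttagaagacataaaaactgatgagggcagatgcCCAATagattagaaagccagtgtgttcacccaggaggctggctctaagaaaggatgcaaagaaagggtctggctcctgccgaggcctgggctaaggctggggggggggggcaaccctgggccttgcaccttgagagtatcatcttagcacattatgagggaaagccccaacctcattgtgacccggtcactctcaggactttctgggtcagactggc
Spem2, chr11:69818464-69818713, minus strand: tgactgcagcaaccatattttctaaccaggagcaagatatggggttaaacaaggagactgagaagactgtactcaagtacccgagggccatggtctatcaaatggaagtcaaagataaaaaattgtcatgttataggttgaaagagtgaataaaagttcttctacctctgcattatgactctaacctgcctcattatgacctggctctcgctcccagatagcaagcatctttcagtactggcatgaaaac
Ube2j1, chr4:33031130-33031379, plus strand: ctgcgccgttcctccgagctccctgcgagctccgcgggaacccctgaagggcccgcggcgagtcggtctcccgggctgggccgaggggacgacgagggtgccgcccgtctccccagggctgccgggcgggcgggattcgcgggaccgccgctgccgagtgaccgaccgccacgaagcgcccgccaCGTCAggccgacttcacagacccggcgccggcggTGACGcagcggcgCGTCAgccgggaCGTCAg
Ubqln1, chr13:58215654-58215903, minus strand: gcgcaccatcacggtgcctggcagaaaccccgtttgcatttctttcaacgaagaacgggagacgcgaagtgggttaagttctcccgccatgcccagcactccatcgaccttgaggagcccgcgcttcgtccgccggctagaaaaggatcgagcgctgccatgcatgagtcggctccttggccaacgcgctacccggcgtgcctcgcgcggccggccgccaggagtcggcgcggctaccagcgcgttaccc
The Ube2j1 window ends at 33031379, ahead of the GENCODE gene start at 33031416, and no GENCODE transcript of Ube2j1 held the first bases after it. The Ube2j1 promoter held 4 matches to TGACG and none to TGACGTCA. At least 1 match to TGACG was present in 17.9% of 27025 promoters of the same length, and 4 or more in 0.152%. These shares were not matched for CpG content, and TGACG itself holds a CpG. The Ube2j1 window is rich in CpG: 99.2% of promoters held as many or fewer. The capitals in the Spem1 window are 1 match to CCAAT, which 34.5% of promoters held. The Spem2 and Ubqln1 windows had no match to any of the 4, where TATAAA was in 13.0% and TGACGTCA in 1.62% of promoters. In CpG content the genes that varied together between libraries were not alike. The Spem1 and Spem2 windows each held 2 CpG dinucleotides, Ube2j1 held 41 and Ubqln1 held 31, against a median of 6 over all promoters.

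The members spanned a wide range of RNA levels. Spem1 was the most abundant per length, with a mean of 368 ± 107 FPKM (SD, n = 6 libraries), followed by Spem2 at 248 ± 57.0 FPKM. Spem1 exceeded Spem2 in 6 of 6 libraries, by 1.14 to 1.72 times, although their ranges overlapped. Ube2j1 at 105 ± 16.7 and Ubqlnl at 103 ± 30.1 FPKM came next and did not differ beyond their spread, since Ube2j1 was the higher in 3 of 6 libraries. Ubqln1 followed at 43.1 ± 2.76 FPKM, then Ubqln4 at 10.8 ± 0.690 and Ubqln2 at 8.93 ± 0.926 FPKM. Ubqln4 was above Ubqln2 in 6 of 6 libraries, by 1.10 to 1.43 times, with ranges that overlapped. Alox15 was the lowest, at 0.978 ± 0.372 FPKM.

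The main comparison asked whether the RNA of these genes differs in level when Tmc7 is knocked out rather than heterozygous. None of the 8 passed. By limma on log2(FPKM + 1), 0 of 8 members were called higher and 0 lower at an adjusted p under 0.05, and across all 19168 tested genes the shares called were 0% and 0%. At an unadjusted p under 0.05 there were again 0 members in either direction, where 1.48% of all genes were higher and 2.38% lower (284 and 457 genes). Without knockout-labelled library 1 those counts over all genes rose to 1499 and 1992, still with 0 genes called by limma (smallest adjusted p = 0.14). By limma-voom on the recovered reads 0 members were called, with 0% of 20556 genes higher and 0.00486% lower. No member had groups without overlap, a pattern seen in 4.15% of all genes as higher and 4.41% as lower in the knockout-labelled libraries. The median difference of the 8 members was -0.11 on the log2(FPKM + 1) scale, with 5 below and 3 above 0, against a median of -0.01 over all tested genes, of which 51.4% were below 0.

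**Figure D1:**
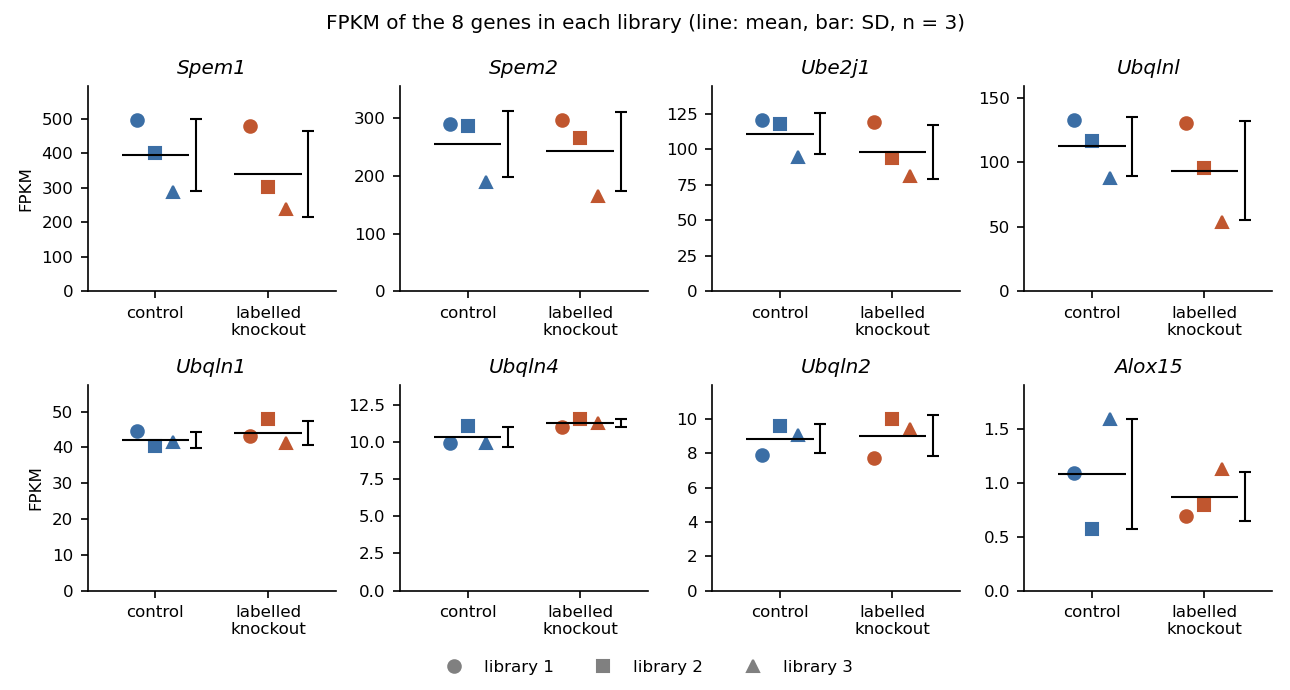
FPKM of the 8 genes (vertical axes, each starting at 0) in the 3 control libraries (blue) and the 3 libraries labelled knockout (orange), with the mean as a line, the SD as a bar and the library number as the symbol. In every panel the 2 groups overlap, and Spem1 ranges from 497 FPKM in control library 1 to 238 FPKM in knockout-labelled library 3.

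Spem1 measured 497, 400.3 and 289 FPKM in controls, against 481, 303 and 238 FPKM in the knockout-labelled libraries. The highest value and the third highest belonged to controls, with knockout-labelled library 1 between them, so the groups overlapped along nearly their whole range. The means were 395 ± 104 and 341 ± 126 FPKM (SD, n = 3 each), a log2 difference of -0.24 (SE 0.30) on the log2(FPKM + 1) scale, with a 95% confidence interval of -0.94 to 0.46 (limma adjusted p = 0.879). Spem2 was at 289.6, 286 and 188 FPKM in controls, against 296, 266 and 165 FPKM in the knockout-labelled libraries. Its highest value was in knockout-labelled library 1 and its lowest in knockout-labelled library 3, with all 3 controls between them. Its difference was -0.09 (SE 0.26), with a 95% interval of -0.71 to 0.53 (limma adjusted p = 0.947). The ratio of Spem1 to Spem2 FPKM was 1.72, 1.40 and 1.53 in controls against 1.62, 1.14 and 1.44 in the knockout-labelled libraries, again with overlap.

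Ube2j1, the conjugating enzyme, was at 121, 118 and 94.4 FPKM in controls, against 119, 94.0 and 81.3 FPKM in the knockout-labelled libraries. Control library 3 and knockout-labelled library 2 were almost equal, and knockout-labelled library 1 lay between control libraries 1 and 2. The difference was -0.19 (SE 0.17), with a 95% interval of -0.58 to 0.21 (limma adjusted p = 0.868). Ubqlnl, a ubiquilin-like gene, was at 133, 117 and 87.5 FPKM in controls, against 131, 95.3 and 54.0 FPKM in the knockout-labelled libraries. Knockout-labelled library 3 was the lowest, while the other 5 libraries were interleaved. Ubqlnl had the largest difference of the 8 members, -0.33 (SE 0.32), with a 95% interval of -1.08 to 0.41 (limma adjusted p = 0.868). That difference rested on knockout-labelled library 3, without which it was 0.01. Without the same library the Spem1 difference was -0.02, that of Ube2j1 -0.06, and that of Spem2 0.17. Knockout-labelled library 1 worked the other way: without it the differences of Spem1, Spem2, Ube2j1 and Ubqlnl were -0.52, -0.25, -0.33 and -0.62, with limma adjusted p from 0.288 to 0.651. Leaving out control library 1 brought Spem1 to -0.06, Ube2j1 to -0.12, Ubqlnl to -0.20 and Spem2 to 0.02. Without control library 3 they were -0.45, -0.30, -0.50 and -0.29, and Spem2 was at 0.01 without control library 2.

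The 3 broadly expressed ubiquilins varied little between libraries. Ubqln1, which binds SPEM1, was at 44.6, 40.4 and 41.4 FPKM in controls, against 43.2, 47.8 and 41.4 FPKM in the knockout-labelled libraries, with knockout-labelled library 2 the highest. The highest library was 1.18 times the lowest, and the difference was 0.06 (SE 0.09), with a 95% interval of -0.15 to 0.28 (limma adjusted p = 0.891). With 1 library left out in turn the Ubqln1 difference ran from 0.0060 (without knockout-labelled library 2) to 0.11 (without knockout-labelled library 3). Ubqln4 was at 9.97, 11.1 and 9.93 FPKM in controls, against 11.0, 11.5 and 11.3 FPKM in the knockout-labelled libraries. Only control library 2 kept the groups from separating, at 11.1 FPKM against a lowest value of 11.0 FPKM in the knockout-labelled libraries. Its difference was 0.12 (SE 0.09), with a 95% interval of -0.09 to 0.32 (limma adjusted p = 0.868). Ubqln2, the X-linked ubiquilin in which human mutations cause motor neuron disease, was at 7.91, 9.56 and 9.06 FPKM in controls, against 7.70, 9.97 and 9.42 FPKM in the knockout-labelled libraries. Library 1 was the lowest in both groups. The difference was 0.02 (SE 0.12, limma adjusted p = 0.974).

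**Figure D2:**
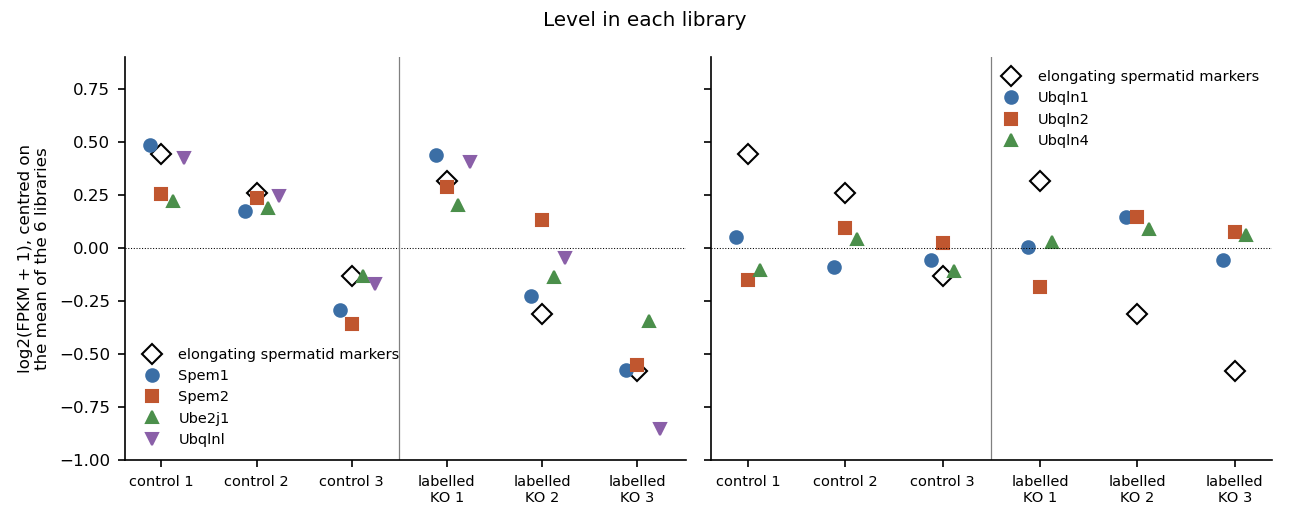
Level in each library on the log2(FPKM + 1) scale, centred on the mean of the 6 libraries, with members as filled symbols and the mean of 16 elongating spermatid markers as open diamonds. Spem1, Spem2, Ube2j1 and Ubqlnl (left) are above 0 in control libraries 1 and 2 and in knockout-labelled library 1, below 0 in the other 3 libraries apart from Spem2 in knockout-labelled library 2 (0.13), and lowest in knockout-labelled library 3, whereas Ubqln1, Ubqln2 and Ubqln4 (right) stay between -0.19 and 0.15.

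Spem1, Spem2, Ube2j1 and Ubqlnl thus varied with the library more than Ubqln1, Ubqln2 and Ubqln4 did, and in neither set did the groups separate by label. The ratio of the highest to the lowest library was 2.09 for Spem1, 1.80 for Spem2, 2.46 for Ubqlnl and 1.48 for Ube2j1, against 1.18 for Ubqln1, 1.16 for Ubqln4 and 1.29 for Ubqln2. Spem1 and Ubqlnl had the same order from high to low: control 1, knockout-labelled 1, control 2, knockout-labelled 2, control 3, knockout-labelled 3. The elongating spermatid marker level, centred in the same way, was 0.44, 0.26 and -0.13 in controls against 0.32, -0.31 and -0.58 in the knockout-labelled libraries, and Spem1 was at 0.48, 0.17 and -0.29 and at 0.44, -0.23 and -0.57. The part of the marker level in the members' differences was not tested.

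Sertoli markers had exactly the reverse of the library order of the elongating spermatid markers, and leukocyte markers were also highest in knockout-labelled libraries 2 and 3. The centred Sertoli level was -0.21, -0.14 and 0.01 in controls and -0.17, 0.18 and 0.33 in the knockout-labelled libraries, with 11 of 12 genes above 0 in difference and a median of 0.24. The leukocyte level was -0.20, -0.18 and 0.02 in controls and -0.12, 0.19 and 0.29 in the knockout-labelled libraries, with 11 of 11 genes above 0 and a median of 0.22. By limma 0 genes of either list were called. The groups did not overlap in 1 of 12 Sertoli and 1 of 11 leukocyte markers, both higher, against 4.15% of all genes. The summed FPKM of the Sertoli genes spanned 553 to 590.03 in controls against 543 to 732 in the knockout-labelled libraries. The part of these cells in the members' levels was not tested.

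Among 12515 other genes averaging 2 FPKM or more, those whose log2 levels over the 6 libraries were most like Spem1 were 1700001C19Rik (Pearson r = 0.999), the testis-specific kinase gene Tssk3 (0.999), 1700012A03Rik (0.998), Arl2bp, which encodes an ARL2-binding protein (0.997), and Knstrn, a spindle protein gene (0.997). Among the members r with Spem1 was 0.974 for Ube2j1, 0.941 for Ubqlnl, 0.879 for Spem2, 0.14 for Ubqln1, -0.30 for Ubqln4 and -0.75 for Ubqln2. These are descriptions over 6 libraries of 1 tissue, in which 2.5% of the genes compared had an r above 0.950.

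Ubqln5, a ubiquilin gene near Ubqlnl on chromosome 7, was at 39.3, 37.5 and 30.1 FPKM in controls, against 38.8, 37.4 and 27.7 FPKM in the knockout-labelled libraries. Its lowest library was knockout-labelled library 3, as for Ubqlnl, and the groups overlapped, with a difference of -0.05 (SE 0.16, limma adjusted p = 0.956). Ubqln5 overlaps the span of the olfactory receptor gene Olfr643 on the same strand, although 0% of its 31-base words occur in transcripts of other genes.

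Ranbp17, a nuclear transport receptor that binds SPEM1, was at 16.4, 15.8 and 16.9 FPKM in controls, against 17.2, 16.9 and 14.8 FPKM in the knockout-labelled libraries. Its difference was -0.01 (SE 0.09, limma adjusted p = 0.989).

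The degradation pathway of the endoplasmic reticulum, in which UBE2J1 acts, was followed through 31 further genes, all of them tested. None was called in either direction, and 1 was lower at an unadjusted p under 0.05 in limma, against 2.38% of all genes. The groups did not overlap in 1 gene as higher and in 1 as lower, against 4.15% and 4.41% of all genes. Of the 31 genes 13 were above and 18 below 0. Their median difference was -0.01, equal to that of all genes to 2 decimals. Erlec1, a lectin that recognises glycans of misfolded proteins, had the smallest p: it was at 19.8, 17.8 and 20.8 FPKM in controls, against 18.2, 14.8 and 14.1 FPKM in the knockout-labelled libraries (difference -0.30, standard error 0.12, limma adjusted p = 0.868). Its groups overlapped only through knockout-labelled library 1. Derl3, of the derlin family of membrane proteins, was at 13.7, 12.5 and 13.8 FPKM in controls and higher in all 3 libraries labelled knockout, at 13.9, 16.4 and 19.7 FPKM (difference 0.29, standard error 0.13, limma adjusted p = 0.868).

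The largest difference of the list, at -0.45, belonged to Rnf133, a ubiquitin ligase of the spermatid endoplasmic reticulum, named here after its values were seen. It was at 142, 133 and 105 FPKM in controls, against 144, 86.0 and 61.9 FPKM in the knockout-labelled libraries, with its highest and its 2 lowest values under the same label (standard error 0.29, limma adjusted p = 0.868). Ube2j2, a relative of Ube2j1, was also named after its values were seen. It was at 22.7, 22.0 and 22.3 FPKM in controls, against 23.4, 20.9 and 22.5 FPKM in the knockout-labelled libraries, and did not show the library pattern of Ube2j1.

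In the other pathway lists described here 0 genes had an unadjusted p under 0.05 in limma. Ubiquitin shuttles and factors that sort membrane proteins with the ubiquilins gave 0 calls among 16 tested genes, with 10 above and 6 below 0 and a median of 0.07. Stub1, a ubiquitin ligase that works with chaperones, averaged 13.4 ± 0.549 FPKM over the controls, against 15.9 ± 2.18 FPKM over the knockout-labelled libraries (SD, n = 3 each, limma adjusted p = 0.868). In knockout-labelled library 1 it lay within the range of controls.

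Genes of the tubulobulbar complex, the actin structure through which the Sertoli cell draws off spermatid cytoplasm and membrane, gave 0 calls among 16, with 7 above and 9 below 0 and a median of -0.03. Capza3, a spermatid actin-capping subunit in that list and also a late spermatid marker, was at 106, 107 and 85.5 FPKM in controls, against 99.5, 62.4 and 55.6 FPKM in the knockout-labelled libraries. Its difference was -0.49 (SE 0.22, limma adjusted p = 0.868). Actr2, a subunit of the ARP2/3 complex that branches actin, was at 7.61 ± 0.175 and 6.87 ± 0.438 FPKM (limma adjusted p = 0.868). Its groups did not overlap, which held for 1 of the 16 genes as lower, against 4.41% of all genes.

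Genes for the engulfment of residual bodies gave 0 calls among 11 tested of 13, with 8 above and 3 below 0 and a median of 0.08. Mfge8, which bridges exposed phosphatidylserine to the phagocyte, was at 12.1, 10.1 and 9.21 FPKM in controls, against 12.5, 20.8 and 11.8 FPKM in the knockout-labelled libraries, where a single library was high (difference 0.44, limma adjusted p = 0.868). Mertk, a receptor for engulfment on Sertoli cells and macrophages, was at 1.96 ± 0.167 and 2.42 ± 0.380 FPKM. Sertoli and leukocyte marker levels were higher in knockout-labelled libraries 2 and 3 as given above, and their part in these values was not tested.

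Alox15 was near the lower limit of what was tested. It was at 1.09, 0.572 and 1.59 FPKM in controls, from 44, 26 and 75 reads, and at 0.689, 0.799 and 1.13 FPKM in the knockout-labelled libraries, from 32, 34 and 54 reads. The highest and the lowest value were both in controls. The exact 95% Poisson intervals, which cover counting error only, ran from 0.374 to 0.838 FPKM for control library 2 and from 1.25 to 1.99 FPKM for control library 3, so controls differed from each other by more than counting error. The difference between the groups was -0.13 (SE 0.20), with a 95% interval of -0.61 to 0.34 (limma adjusted p = 0.897). It was -0.22 at a pseudocount of 0.01, where low values count for more, and 0.04 without control library 3, which held the highest value. Without control library 2 it was -0.32.

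The other lipoxygenases were lower still or at a like level. Alox12 was at 0.778 to 1.35 FPKM over the 6 libraries, and Alox5, Alox8, Alox12b, Alox12e and Aloxe3 had means below the 0.5 FPKM needed for testing. Of the 8 genes of the list 3 were tested, with 0 calls and differences between -0.09 and -0.06. Gpx4, the peroxidase that reduces the lipid hydroperoxides lipoxygenases form, was at 545 ± 81.9 FPKM in controls against 511 ± 63.1 FPKM in the knockout-labelled libraries (limma adjusted p = 0.912). Leukocyte markers, whose cell type can express Alox15, had a summed FPKM of 52.6 to 57.8 in controls against 56.2 to 75.9 in the knockout-labelled libraries, over 11 of 14 genes tested, all 11 of them above 0 in difference. Of 7 markers of eosinophils and resident peritoneal macrophages, cells known for high Alox15, 6 were below 0.5 FPKM in the mean, and Epx was at 0 in 4 of 6 libraries. Gata6, also a Sertoli cell gene, was the only one tested. It was at 2.26 to 2.60 FPKM in controls and 2.70 to 2.98 FPKM in the knockout-labelled libraries (limma adjusted p = 0.868). Its groups did not overlap, a pattern seen as higher in 4.15% of all genes.

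**Figure D3:**
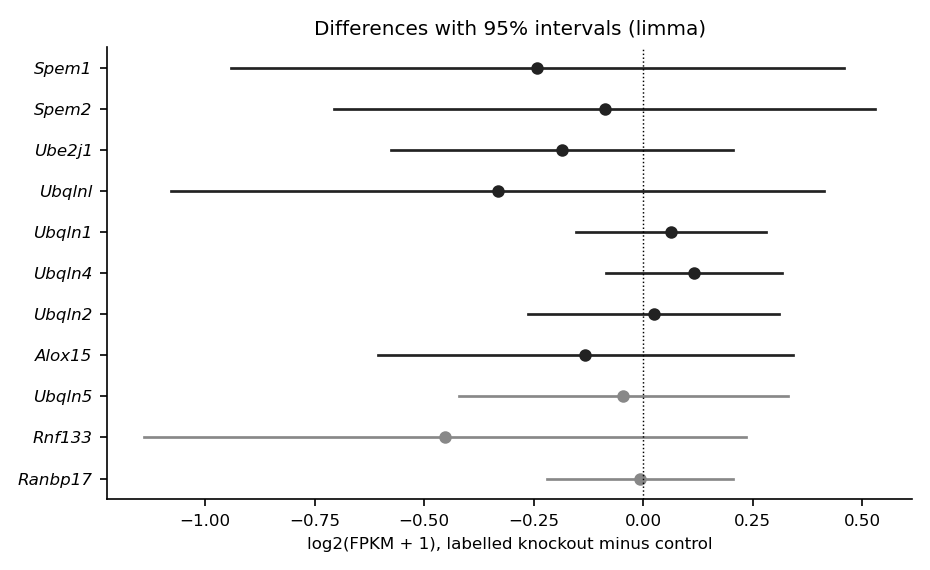
Difference on the log2(FPKM + 1) scale, libraries labelled knockout minus controls, for the 8 members (black) and for Ubqln5, Rnf133 and Ranbp17 (grey), with 95% intervals from limma. All 11 intervals cross 0, and those of Ubqln1, Ubqln4, Ubqln2 and Ranbp17 are the narrowest.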

How the data were processed

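RNA of 3 control (heterozygous) and 3 Tmc7 knockout testis libraries was extracted with Trizol and made into libraries with a SMARTER mRNA-Seq kit, per the labels' protocols. Titles give the group and replicate number. FPKM for every gene stand in a single table deposited by the authors. The builds GRCm38 and mm10 are named per the submitters' processing notes, while for aligner, counter, strand and annotation release the sources used here name nothing. Each FPKM times gene length was a whole multiple of a per-library step for 100% of values above 0 (tolerance 0.01 reads), which gave the reads per gene. No 2 libraries of a group agreed within sampling noise (chi-square per degree of freedom from 7.19 to 30.1 over the 6 within-group pairs).

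The test was limma 3.58.1 (R 4.3.3) applied to log2(FPKM + 1) of genes averaging 0.5 FPKM or more (trended variance, group term only, Benjamini-Hochberg adjustment over all tested genes, threshold 0.05). A pseudocount of 1 understates differences of low genes such as Alox15. The procedure was tested on simulated data with changes of at least 2 fold and no shifts shared between genes. Its simulated spread was a single setting for all genes and was not fitted to these libraries. That test does not measure power for smaller differences, nor for genes that vary more between libraries, such as Spem1 and Ubqlnl. The 15 alternatives were pseudocounts of 0.1 and 0.01, no filter, genes averaging 2 FPKM or more, median-of-ratios and quantile scaling, the replicate block, limma-voom on the recovered reads of genes averaging 10 or more, no trend, and each library left out.

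Members and lists were chosen with earlier results of these data known. Of 178 list entries 177 matched the table; Spem3 did not. March6, which stands as a date in the table, was matched by its Ensembl ID and Camlg by its synonym. Named in the text are all members, Tmc7, the other matched SPEM partners and ubiquilins, the 2 genes of smallest unadjusted p, averaging 2 FPKM or more, in each pathway list, the 2 of highest FPKM in each marker list, and the 5 most like Spem1, except for genes not reported here. Rnf133, Ube2j2, the lipoxygenases beside Gpx4 and the promoters shown were chosen after values were seen. Sequence sharing used 31-base words of GENCODE M21 transcripts and was measured for the members and Ubqln5 only.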

Additional observations from a re-analysis of the deposited data

How the results depend on the processing

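No member was called under any of the 15 alternatives. The count of genes called lower was 1 with limma-voom on recovered reads (that gene is no member) and 0 under the other 14, and the count called higher was 0 under all 15. With each library left out in turn, the counts called higher and lower were 0 to 0. At an unadjusted p under 0.05 in limma, 284 genes were higher and 457 lower with all 6 libraries, 1499 and 1992 without knockout-labelled library 1 (smallest adjusted p = 0.14), and 182 to 269 and 273 to 439 with each of the other 5 left out. The direction turned in 8 cases, each with a library left out. Over the 6 such fits Spem2 ran from -0.29 (control library 3 left out) to 0.17 (knockout-labelled library 3), and was also above 0 with control library 1 (0.018) or control library 2 (0.00845) left out. Ubqln2 ran from -0.0463 (control library 1) to 0.12 (knockout-labelled library 1), and was below 0 with knockout-labelled library 2 (-0.0443) or 3 (-0.00717) left out as well. Ubqlnl ran from -0.62 (knockout-labelled library 1) to 0.0128 (knockout-labelled library 3), and Alox15 from -0.32 (control library 2) to 0.0398 (control library 3). The cause was not tested. With an arm of 2 libraries the spread is pooled over both groups. Quantile scaling brought Spem1 from -0.24 to -0.13, Spem2 from -0.09 to -0.02 and Ube2j1 from -0.19 to -0.12, and took Ubqln1 from 0.06 to 0.11. Median-of-ratios scaling changed no value, because the deposited FPKM already gave equal factors by that measure, so it is no separate check. No scaling moved the median of all genes by over 0.1. Same-numbered libraries correlated in their deviations from the group means at 0.361, 0.0634 and 0.285. Control libraries 1 and 3 correlated best with their own number, and control library 2 did not. These values do not settle whether the libraries are paired, and the number was not taken to pair them in the main test. With the replicate block 0 genes were called higher and 0 lower, with 405 and 1006 at an unadjusted p under 0.05, and the Spem1 difference of -0.24 had an adjusted p of 0.662 in limma. The block narrowed the SE of Spem1 from 0.30 to 0.10, of Ubqlnl from 0.32 to 0.14 and of Ube2j1 from 0.17 to 0.09. Their unadjusted p in limma fell from 0.44 to 0.059, from 0.33 to 0.058 and from 0.30 to 0.097. In these genes each knockout-labelled library was below the control library of the same number. For the other members the unadjusted p with the block was 0.24 to 0.80 in limma. Alox15 had 26 to 75 reads per library, and its controls differed by more than counting error. Alox15 was not tested at a mean of at least 2 FPKM.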
